A study of Gallus gallus with 4 samples.

Results

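Goggle-covered eyes were compared with uncovered eyes of chicks (Gallus gallus) kept under normal light, using 2 of the 4 pooled arrays of a study that also ran both kinds of eye under violet light. The arrays were chosen by their sample titles. Per the labels' protocols, a glass goggle was placed over the right eye at day 6 after hatching to induce myopia, with nothing placed over the left. Goggles were worn for 7 days with 12 hours of light a day, and buttons of retina and choroid 6 mm wide were taken on day 13 from the back of the eye. RNA of 4 eyes was mixed into each pool and read on 1 array, so the control is the fellow eye of a goggled chick and each group has n = 1 pool. With 1 array a side there is no error between animals and no test. Every difference below is a description of these 2 pools, and fewer cells of a type cannot be told apart from less RNA per cell.

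A goggle that degrades the image makes the growing eye of a chick elongate, and the retina is known to send the signals for this growth to the choroid and sclera behind it. The transcription factor EGR1 (ZENK in older chick work) is known from amacrine cells that respond to the sign of defocus. Photoreceptors in the same tissue follow light and the circadian clock, and the choroid adds blood vessels, smooth muscle, fibroblasts and leukocytes to the pool.

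The label of the uncovered normal-light array is disputed between the deposited sources. Across probes, the column that the authors' value table labels uncovered normal light correlated at 0.9992 with the scan labelled covered violet light and at 0.9813 with its own scan. For the table's covered violet-light column, the correlations were 0.9997 with the uncovered normal-light scan and 0.9815 with its own. The covered normal-light array carries the same label in both sources (0.9995). All values follow the scanner files' labels. Under the table's labels the same 2 arrays compare covered eyes under normal light with covered eyes under violet light, and the goggle comparison under normal light uses another array as its control.

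Signals are log2 processed spot signals, from which the 75th percentile of the same array was subtracted. Before that scaling the uncovered pool was 2.64-fold brighter (75th percentile 2108 against 797.5), while 8 control probes for synthetic spike-in RNA were 2.15-fold brighter on the covered array (log2 1.11, range 0.88 to 1.29). Values are therefore relative to each array's own probes and give no amount of RNA per eye. Among the 4 arrays, the uncovered normal-light one had the highest 75th percentile, against 797.5 to 1325 in the others. Its mean log2 spike-in signal was the lowest, at 11.07 against 12.17, 11.98 and 12.03. Across probes it correlated at 0.9797 with the covered normal-light array, the lowest of all pairs of arrays. What part this array had in the differences below was not tested. Of spots, 85.97% were well above background on the uncovered and 83.76% on the covered array, and none was saturated. Repeated spots of 1 probe (43 probes) had a median SD of 0.04 in the log2 difference.

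A gene was measured where at least 2 of its probes were well above background on both arrays with no outlier mark, which held for 3177 genes. It passed the 2-fold rule where every such probe differed by at least 1 on the log2 scale in the same direction. Of these genes, 45 (1.42%) were higher and 9 (0.283%) lower in covered eyes. Gene lists set against these shares below were chosen with earlier results of these data known, so their shares are descriptions. The smallest probe difference was only 1 to 1.5 in size on the log2 scale in 26 of the 45 higher and 8 of the 9 lower genes. The median level in the uncovered pool was -4.55 over the higher and -0.40 over the lower genes. The median difference over all 3177 genes was 0.11, and 61.57% lay above 0. The median moved to 0.01 with quantile normalization, 0.02 with cyclic loess, -0.23 with median scaling and 0.20 after normexp background correction. The share of higher genes among those that passed was 83.3%, and 59.5%, 62.2%, 45.8% and 95.8% in the same order. In all of these settings, 20 of the 45 higher and 3 of the 9 lower genes passed. The 20 include 11 striated muscle genes and the lens crystallin CRYBA2, and the 3 are IFI6, MGP and GRK7.

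**Figure D1:**
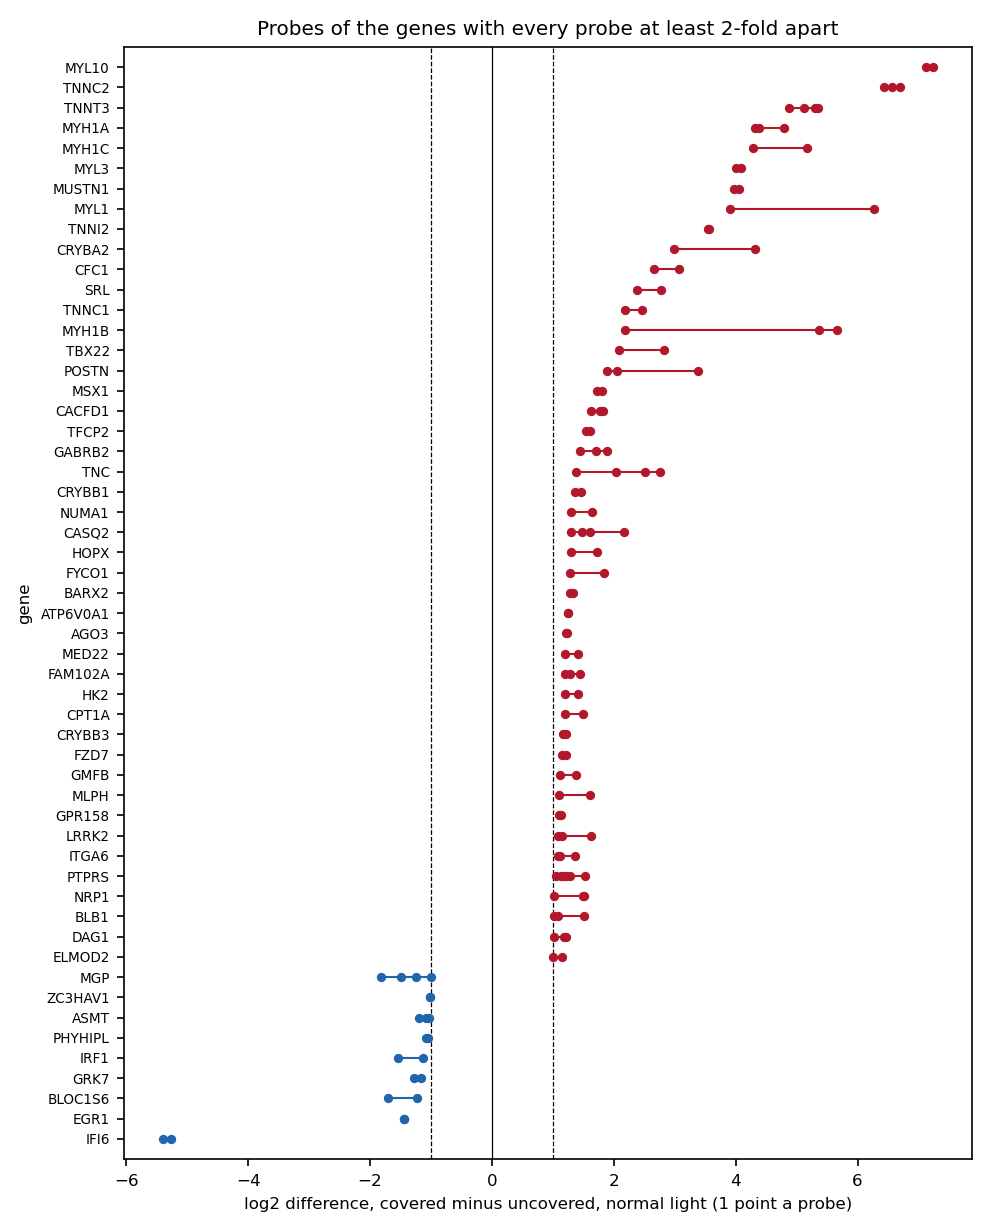
Log2 difference, covered minus uncovered under normal light, for each probe (points) of the 45 higher (red) and 9 lower (blue) genes that passed the 2-fold rule, with lines joining the probes of a gene and dashed lines at 2-fold. The higher genes reach 7.24 at a MYL10 probe, and among the lower genes the probes of IFI6 lie apart at -5.40 and -5.27.

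Asking every probe to agree removed most candidates. At least 1 probe was 2-fold higher in 582 genes and 2-fold lower in 60, and in 2 genes probes were 2-fold apart in both directions. The gap between a gene's highest and lowest probe had a median of 0.53 and reached 2-fold in 22.79% of genes, against 0.23 and 1.17% for the violet-light pair. Wide gaps were thus more frequent in the normal-light pair than in the violet-light pair, which was read with the same probes. By widest gap, and so chosen after the values were seen, the Toll-like receptor adaptor TOLLIP had probes at 0.39 and 4.52, and the cardiac actin ACTC1 had probes at 0.62 and 3.72. Differences also depended on brightness. Over all 36024 probes that passed the filters, 3653 (10.1%) were 2-fold higher and 403 (1.12%) lower. In 4 equal bins of 9006 probes by mean level, the median difference was 0.43 in the dimmest and -0.04 in the brightest. The dimmest bin held 1895 probes 2-fold higher and 144 lower, and the brightest 92 and 60. Medians and shares of gene lists below are set against those of all genes without matching for brightness. In the violet-light pair, 156 of 35873 probes (0.435%) were 2-fold higher and 125 (0.348%) lower.

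EGR1 was among the 9 lower genes. Its level was -2.22 in the uncovered and -3.66 in the covered normal-light pool, and -2.02 and -3.36 in the violet-light pools. The 2 probes gave -1.45 and -1.44, a 2.72-fold lower signal, so they differed by less than the spread of repeated spots. By the scanner files' labels both uncovered pools lay above both covered pools. By the authors' table's labels the same levels place both violet-light pools above both normal-light pools. Of 30 immediate-early genes listed, 7 were measured, and EGR1 was the only one of them to pass (as lower, against 0.283% of all genes). The others lay between -0.24 for CYR61 and 0.48 for CCN2, a connective-tissue growth factor whose 3 probes ranged from 0.04 to 1.21. FOS, a partner of JUN in the AP-1 factor, was at 0.42 (probes 0.31 and 0.53). After normexp correction EGR1 was at -0.77 and did not pass, and in the authors' table under its own labels the difference was -0.36.

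Among measured genes of the photoreceptor cascades, GRK7 alone passed, as lower in covered eyes. GRK7, the kinase that shuts off cone opsins, had levels of 1.73 uncovered and 0.52 covered under normal light, and 1.72 and 0.52 under violet light. Its probes gave -1.28 and -1.16 for the normal-light pair. Of 6 measured members of the cone cascade, 5 were below 0 and 1 passed as lower, against 0.283% of all genes, with a list median of -0.40 against 0.11 for all genes. CNGA3, a subunit of the cone cyclic nucleotide-gated channel, was at -0.92 (probes -1.05 and -0.78) and passed as lower with median scaling only (-1.25). THRB, the thyroid hormone receptor of cone differentiation, was at 0.49. The list median lay 0.51 below that of all genes, and 0.44, 0.41 and 0.68 below it with quantile normalization, cyclic loess and normexp correction, while median scaling moves all genes alike.

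The rod and shared cascade had a median of -0.41 over 6 measured genes, of which 5 were below 0 and none passed. NR2E3, a nuclear receptor that represses cone genes in rods, was at -0.97 (probes -1.18 and -0.77). It passed as lower with quantile normalization (-1.15), cyclic loess (-1.13) and median scaling (-1.31), but not after normexp correction (-0.66). PDE6G, the inhibitory subunit of rod phosphodiesterase, was at -0.66 (probes -0.67 and -0.65). RGS9BP, the membrane anchor of the RGS9 complex that ends the light response, had probes from -1.37 to 0.52. A further 7 listed genes rested on 1 probe, and 2 of these were 2-fold lower, against 1.12% of all probes. Only 2 opsins had 2 usable probes, and both were higher with neither passing. The melanopsin OPN4 was at 1.05 (0.66 and 1.43) and the green cone pigment OPN1MSW at 0.88 (0.34 and 1.43). In both genes the dimmer probe gave the larger difference. In the authors' table under its own labels, OPN4 was at -0.32 and OPN1MSW at -0.09.

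ASMT, which carries out the last step of melatonin synthesis, was lower at all 3 probes (-1.20 to -1.04). Its levels were -0.40 and -1.55 in the uncovered and covered normal-light pools, and -0.42 and -1.41 in the violet-light pools. The covered pools thus lay below the uncovered pools under both lights by the scanner files' labels. By the authors' table's labels the same levels place both normal-light pools below both violet-light pools. Of 6 measured genes for melatonin and dopamine, 4 were below 0 and ASMT alone passed, as lower, against 0.283% of all genes. ASMT did not pass after normexp correction (-1.08). The monoamine oxidase MAOA was at -0.80, and the melatonin receptor MTNR1A at -0.44, which became 0.46 after normexp correction. None of 8 measured clock genes passed. ARNTL, the BMAL1 partner of CLOCK, had a median of 1.07 but probes at 0.09 and 2.05. NPAS2, which can stand in for CLOCK, was at 1.04 (0.66 to 1.998), and the repressor CRY1 was at -0.91 with probes from -1.01 to 0.12. PER2, another repressor and outside the naming rule, was at 0.73 in this pair and at -0.30 under violet light.

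**Figure D2:**
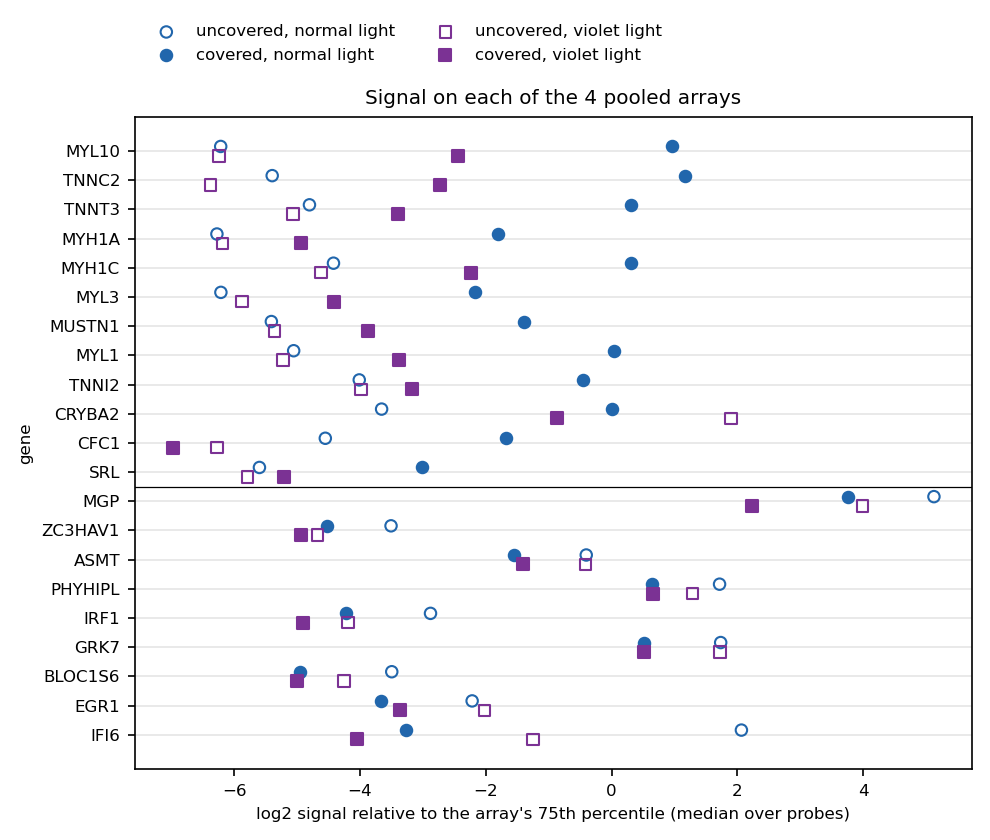
Log2 signal relative to the array's 75th percentile on each of the 4 pooled arrays (circles for normal light, squares for violet light, filled for covered eyes) for the 12 higher genes and the 9 lower genes with the largest smallest-probe difference. Muscle genes such as MYL10 and TNNC2 are highest in the covered normal-light pool. By the scanner files' labels used here, GRK7, ASMT and EGR1 separate both covered from both uncovered pools. By the authors' table's labels the same levels separate both normal-light from both violet-light pools.

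In the interferon list, 3 measured genes passed as lower in the covered normal-light pool. IFI6, an interferon-induced protein, had a level of 2.06 in the uncovered and -3.27 in the covered pool, and -1.25 and -4.05 under violet light. Its probes gave -5.40 and -5.27, the largest difference among the 9 lower genes. IRF1, a transcription factor of the interferon response, was at -1.34 (-1.54 and -1.14), and ZC3HAV1, which binds viral RNA, at -1.02 (-1.02 and -1.01). Both had their highest level in the uncovered normal-light pool, at -2.88 for IRF1 and -3.51 for ZC3HAV1, and between -4.90 and -4.19 and between -4.94 and -4.52 in the other 3 pools.

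MX1, an antiviral GTPase, was well above background at 2 of 2 probes in the uncovered and at 0 in the covered normal-light pool. It was at least 6.78-fold lower in covered eyes, taking the lowest signal well above background on the covered array as the bound. Of 13 genes above background in the uncovered pool only, MX1 alone had a bound of 2-fold or more. Above background in the covered pool only were 2 genes, both with such a bound. Of 59 listed interferon genes, 21 were measured, 15 of them below 0, with 3 lower and 0 higher by the rule, against 0.283% and 1.42% of all genes. The list median was -0.23, and 0.13 after normexp correction, where it stayed 0.07 below the median of all genes. IRF1 and ZC3HAV1 were at -0.30 and -0.12 with that correction and did not pass. TAP1, a peptide transporter of antigen presentation and outside the naming rule, was the highest member at 0.79.

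Genes of the striated muscle lists were the most frequent among the listed higher genes, with 12 of 45. MYL10, a myosin light chain, had a level of -6.21 in the uncovered and 0.97 in the covered normal-light pool, and -6.24 and -2.44 under violet light. Its probes gave 7.12 and 7.24. TNNC2, the calcium-binding troponin of fast muscle, had levels of -5.39, 1.17, -6.38 and -2.73 in the same order of pools, and its 3 probes ranged from 6.44 to 6.70. For both genes, by the scanner files' labels, the covered normal-light pool was highest and the covered violet-light pool next, with the uncovered pools far below. By the authors' table's labels the same levels place both normal-light pools above both violet-light pools.

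Of 8 measured genes of myosins and the thick filament, 6 passed as higher, against 1.42% of all genes, and all 8 were above 0, with a median of 4.55. The muscle lists, like the others, were chosen with earlier results of these data known. MYH1A, MYH1B and MYH1C, fast myosin heavy chains, had medians of 4.38, 5.36 and 4.73. Because the sequences of these neighbouring genes are nearly the same, the values of each are uncertain, and the probes of MYH1B ranged from 2.18 to 5.66. The light chains MYL1 and MYL3 were at 5.09 (3.91 and 6.27) and 4.04 (4.00 and 4.09). The list of the thin filament and Z disc also holds MUSTN1, a nuclear protein. Of the 11 measured genes of this list, 5 passed as higher, against 1.42% of all genes, with a list median of 2.17. They were TNNC2, the troponins TNNT3 (5.20, probes 4.88 to 5.35), TNNI2 (3.55, probes 3.54 and 3.57) and TNNC1 (2.32, probes 2.18 and 2.46), and MUSTN1, a small nuclear protein of muscle and bone (4.01, probes 3.97 and 4.06).

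TNNT2, the cardiac and embryonic troponin T, was well above background at all 3 probes in the covered and at none in the uncovered pool, at least 20.6-fold higher. DHRS7C, a dehydrogenase of the muscle sarcoplasmic reticulum, was at least 13.4-fold higher by the same rule. SRL (sarcalumenin), a calcium-binding protein of that membrane, was at 2.58 (2.38 and 2.78). CASQ2, a calcium store protein, was the only 1 of 4 measured genes of calcium handling and energy to pass, against 1.42% of all genes. It was at 1.54 (1.29 to 2.16) and did not pass with quantile normalization, cyclic loess or median scaling. None of 3 measured regulators of myogenesis passed, with MEF2A at 0.38 and PAX7 at 0.01. A further 5 regulators rested on 1 probe, of which 3 were 2-fold higher and 0 lower. Of all 104 listed muscle genes, 26 were measured and a further 18 rested on 1 probe. Of these 18, 11 were 2-fold higher and none lower, against 10.1% and 1.12% of all probes. Those shares of all probes were not matched for brightness. The median over the 26 was 1.46, and 0.42 for those measured under violet light. Whether unequal amounts of muscle in the buttons had a part in these values was not tested.

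Of the lens crystallins, 3 passed as higher in covered eyes under normal light and as lower under violet light. CRYBA2, a beta crystallin, had levels of -3.66 uncovered and -0.000755 covered under normal light, and 1.90 and -0.87 under violet light. Its probes gave 2.99 and 4.32. CRYBB1 and CRYBB3 were at 1.41 (1.36 and 1.47) and 1.19 (1.17 and 1.22). All 3 had their highest level in the uncovered violet-light pool and their lowest in the uncovered normal-light pool. They were the only 3 of 9 measured members of the crystallin and lens list to pass, against 1.42% of all genes, with a list median of 0.93 and of -1.86 under violet light. CRYBA2 passed with quantile normalization, cyclic loess, median scaling and normexp correction, whereas CRYBB1 did not pass with quantile normalization (1.05) or cyclic loess (1.05), nor CRYBB3 with quantile normalization (0.92), cyclic loess (1.00) or median scaling (0.86). In the authors' table under its own labels, CRYBA2, CRYBB1 and CRYBB3 were at 0.89, 0.52 and 0.38 under normal light and did not pass. ASL1, known in birds as delta crystallin and nearly identical to ASL2, had probes at 0.23 and 1.75. The lens filament gene BFSP1 and the small heat shock crystallin CRYAB, both outside the naming rule, were at -0.27 and -0.19. Lens lies outside a button from the back of the eye, and whether lens RNA in the pools had a part was not tested.

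**Figure D3:**
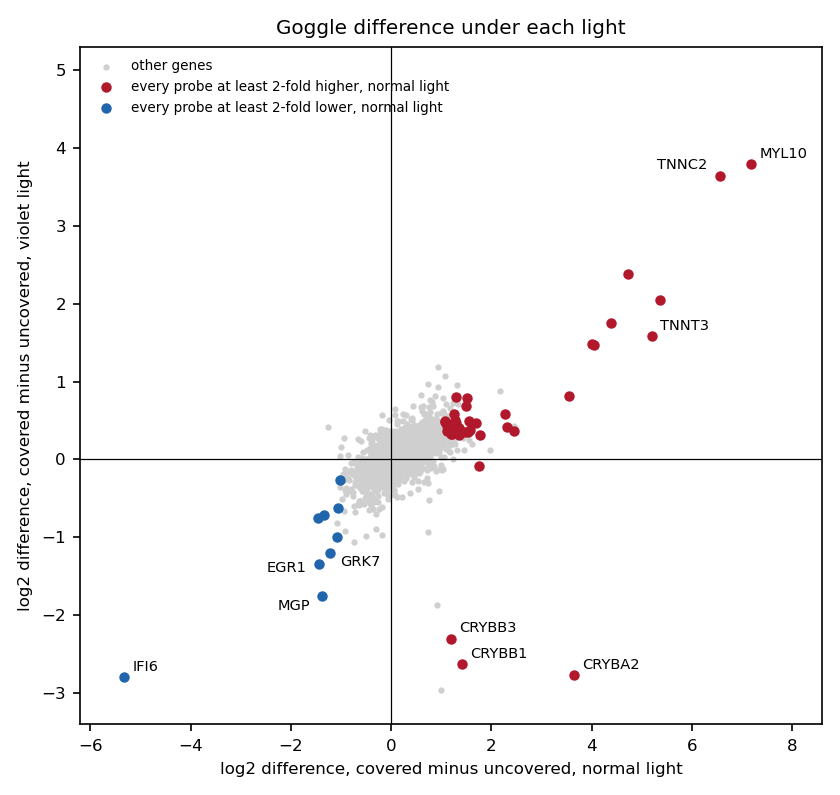
Log2 difference, covered minus uncovered, under normal light (horizontal) and violet light (vertical) for genes measured in both pairs, with genes that passed the 2-fold rule under normal light in red (higher) and blue (lower). Muscle genes lie far to the right and above 0, IFI6 far to the left, and CRYBA2, CRYBB1 and CRYBB3 to the right but below 0.

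The violet-light pair, which shares no array with this one, was read by the same rule. Its covered array is the other one whose label is disputed, so what the 2 pairs share rests on the scanner files' labels. By the authors' table's labels, the pair compares uncovered eyes under normal light with uncovered eyes under violet light. In the violet-light pair 9 of 3154 genes (0.285%) were higher and 10 (0.317%) lower. Of the 45 genes higher under normal light, 40 were measured under violet light, 36 of these were above 0 and 8 passed, while 3 passed as lower. All 9 lower genes were measured and below 0 there, and 4 passed. The median difference was 1.54 over the 45 under normal light and 0.46 over the 40 under violet light, and that of the 9 was -1.34 and -0.997. These genes were chosen for their difference under normal light, so the medians are no comparison of the lights. MGP, an inhibitor of calcification, was at -1.37 (4 probes, -1.82 to -1.01) under normal and -1.75 under violet light. Its levels were 5.12 and 3.75 under normal and 3.99 and 2.24 under violet light. Whether the lights differ could not be tested with 1 array a group.

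Of the matrix genes, 2 passed as higher. TNC (tenascin C), a matricellular protein of growing and injured tissue, was at 2.27 with 4 probes from 1.39 to 2.76, and its levels were -5.36 uncovered and -3.64 covered. POSTN (periostin) was at 2.05 with 3 probes from 1.89 to 3.38, and its levels were -6.03 and -3.09. They were the only 2 of 24 measured members of the fibroblast and matrix list to pass, against 1.42% of all genes, and TNC did not pass with quantile normalization (1.89). In that list 19 were above 0 and 16 above the median of all genes. The list median was 0.52, against 0.11 for all genes. The list median lay 0.42 above that of all genes, and 0.23, 0.24 and 0.51 above it with quantile normalization, cyclic loess and normexp correction. The gelatinase MMP2 was at 1.01 with probes from 0.11 to 1.64. The defining fibroblast genes COL1A2, COL3A1 and DCN were at -0.20, 0.42 and -0.26. None of 5 measured basement membrane genes passed and all were above 0, with COL4A1 at 1.32 but probes from 0.23 to 2.40, COL4A2 at 0.94 and LAMA1 at 0.62. Their median lay 0.51 above that of all genes, and 0.35, 0.37 and 0.72 above it in the same order of settings. For neither list was the comparison with all genes matched for brightness.

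No measured marker of vessels passed. Of 8 measured endothelial genes, 5 were above 0, against 61.57% of all genes. KDR, the main VEGF receptor, was at 0.82 (5 probes, -0.05 to 1.60), ENG at 0.67 and SOX17 at -0.51, the last turning to 0.29 after normexp correction. Of 6 smooth muscle and pericyte genes, 4 were above 0 and also above the median of all genes. TPM2, a tropomyosin shared with striated muscle, was at 1.38 (0.98 and 1.79), TAGLN at 0.70 (0.62 and 0.77) and MYH11, the smooth muscle myosin, at 0.74 with 7 probes from -0.32 to 1.34. The list median was 0.66 and lay 0.56 above that of all genes, and 0.45, 0.42 and 0.41 above it with quantile normalization, cyclic loess and normexp correction. These comparisons of medians were not matched for brightness. Striated muscle genes differed in the same 2 pools, as given above, and their part in the smooth muscle values was not tested.

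Among metabolic genes, the hexokinase HK2 passed as higher (1 of 19 measured, against 1.42% of all genes), at 1.30 (1.20 and 1.40). Its levels were -2.19 uncovered and -0.88 covered under normal light, and -0.97 and -0.50 under violet light, so the uncovered normal-light pool was lowest. It passed under none of quantile, cyclic loess and median scaling, where it lay between 0.96 and 1.18, and it was at -0.41 in the authors' table under its own labels. No other gene of hypoxia and glycolysis passed, with the neuronal enolase ENO2 at 0.97 (0.45 and 1.48) and PDK4, which holds back pyruvate oxidation, at 0.95 (0.39 and 1.52). Of 22 genes of lipid handling, 19 were above 0, 17 lay above the median of all genes and none passed. The list median lay 0.37 above that of all genes, and 0.27, 0.28 and 0.37 above it with quantile normalization, cyclic loess and normexp correction. These comparisons of medians were not matched for brightness. The fatty acid transporter CD36 was at 1.98 with 1 of 3 probes at -0.21, the carboxylase ACACA at 1.32 with 1 at -0.11, and the lipase LPL at 1.25 (0.90 to 1.41). APOA1, the main protein of high-density lipoprotein and an eye-growth candidate, was named after its values were seen, at -1.02 with probes from -1.12 to -0.53.

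No BMP or TGF-beta gene passed among 14 measured, of which 11 lay above 0 and 8 above the median of all genes. The list median lay 0.41 above that of all genes, and 0.18, 0.22 and 0.36 above it with quantile normalization, cyclic loess and normexp correction. These comparisons of medians were not matched for brightness. ID1, a target of BMP signalling, was at 0.90 (0.79 and 1.02), the signal carrier SMAD5 at 0.81 (0.76 and 0.85) and the receptor BMPR2 at 0.80 (0.74 to 1.15). A further 13 listed genes rested on 1 probe, of which 5 were 2-fold higher, against 10.1% of all probes, a share not matched for brightness. In the list of insulin-like, fibroblast and peptide factors, 17 were measured and none passed. Neuropeptide Y (NPY) was at -0.63 (-0.66 and -0.60), FGFR2 at 0.52 with probes at -0.13 and 1.17, and FGF14 at 0.44. None of 10 measured genes of the visual cycle and retinoic acid passed. RPE65, the isomerase of the pigment epithelium, was at 0.74 (0.63 and 0.86), CYP26A1, which breaks down retinoic acid, at -0.52, and CRABP1 at -0.30.

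Marker lists of the other cells held 2 genes that passed. In the pigment list 1 of 8 did, against 1.42% of all genes, the melanosome carrier MLPH at 1.36 (1.11 and 1.62), which did not pass with quantile normalization or median scaling. The list median was 0.48, with DCT at 0.62, SLC16A8 at 0.55 and SOX10 lowest at -0.54. None of 14 glial genes passed, and 9 were above and 5 below 0, with a median of 0.03. Of these 14, 6 lay above the median of all genes. AQP4, the water channel of Müller glia, was at 0.996 (0.86 and 1.13), SOX2 at 0.74 and GJA1 at 0.52, and the myelin gene MBP was lowest at -0.42. None of 12 interneuron genes passed, and 7 were above and 5 below 0, with a median of 0.19. CHAT, the acetylcholine-making enzyme of starburst amacrine cells, was at 1.04 (4 probes, 0.86 to 1.36), NEUROD4 at 0.80 and the bipolar factor VSX1 at 0.78, while CALB1 was lowest at -0.69. Of 10 ganglion cell genes none passed, 8 were above 0 and 6 above the median of all genes. Their median was 0.13, with NEFM at 0.48, EBF1 at 0.39, RBPMS2 at 0.37 and ISL1 lowest at -0.37. In the leukocyte list 1 of 8 passed, against 1.42% of all genes, the class II gene BLB1 at 1.08 (1.02 to 1.51), which has a near-identical neighbour in BLB2. It was at 0.66, 0.73 and 0.74 with quantile normalization, cyclic loess and median scaling and did not pass there. In that list 4 were above and 4 below 0, with MARCO at 0.44 and IL2RG at -0.36. None of 5 erythroid genes passed, with 3 above 0 (EPB41 at 0.62, HBA1 at 0.56 and TAL1 at 0.33) and 2 below, HBBA lowest at -0.27. None of 4 complement genes did, with VTN at 0.64, CLU at -0.40 and C4 at -0.18. SOX10, MBP, CALB1, ISL1 and HBBA lie outside the naming rule and were chosen after their values were seen.

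**Figure D4:**
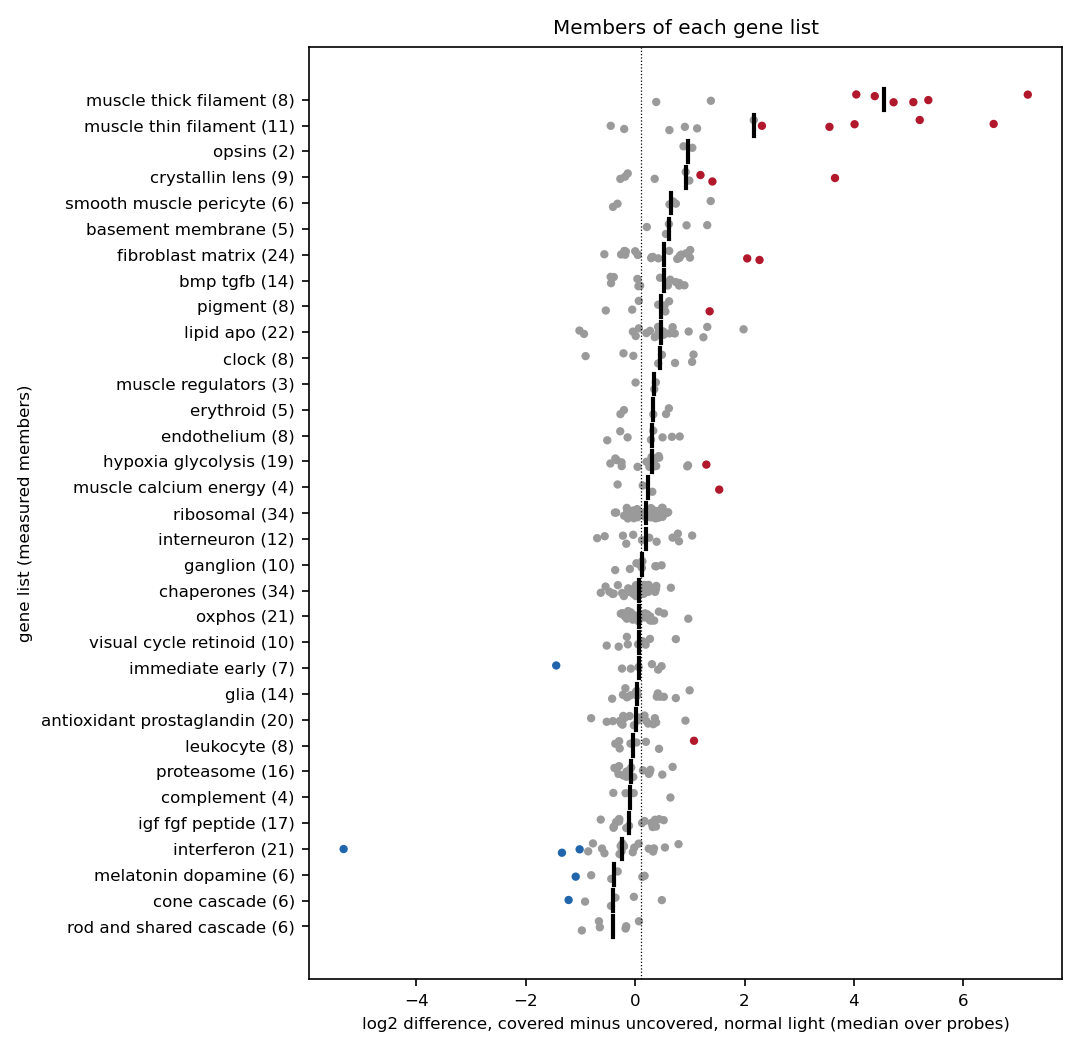
Log2 difference, covered minus uncovered under normal light, of each measured gene (points, median over its probes) by gene list, with a bar at the list median, genes that passed the 2-fold rule in red (higher) or blue (lower), and a dotted line at 0.11, the median of all genes. The lists of muscle filaments lie apart at 4.55 and 2.17, and the photoreceptor cascades lie lowest at -0.40 and -0.41.

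Housekeeping families held no gene that passed. The medians were 0.20 over 34 cytosolic ribosomal proteins, 0.07 over 21 subunits of oxidative phosphorylation, -0.08 over 16 proteasome subunits, 0.07 over 34 chaperones and 0.01 over 20 antioxidant and prostaglandin genes. The ribosomal and proteasome medians were -0.13 and -0.42 with median scaling. Largest in each were RPL31 (0.60), RPL37 (0.58) and RPL27A (0.50), NDUFV1 (0.97, probes 0.30 and 1.64), ATP5B (0.53) and ATP5F1AZ (0.43), PSMD2 (0.69), PSMB5 (0.50) and PSMC2 (-0.38), HSPA5 (0.65), HSPB9 (-0.63) and HSPH1 (-0.54), and NQO1 (0.92), TXNRD1 (-0.81) and GSTO2 (-0.52).

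The remaining genes that passed belong to few of these lists, with 25 of the 45 higher genes in none. CFC1, a co-receptor for Nodal, was at 2.87 (2.67 and 3.07), with levels of -4.55 uncovered and -1.68 covered. In the violet-light pools its levels were -6.27 and -6.98, and it was not measured by the rule there. Named after their values were seen, the transcription factor genes TBX22, MSX1, HOPX and BARX2 were at 2.45, 1.76, 1.51 and 1.30. HOPX did not pass with quantile normalization, cyclic loess or median scaling, nor BARX2 with median scaling. MSX1 was at -0.08 under violet light, and the other 3 at 0.37, 0.79 and 0.81. Most of the 45 higher genes had their lowest level in the uncovered normal-light pool. GABRB2, a GABA receptor subunit named after its values were seen, was at 1.70. Its level in that pool was -2.85, the lowest of the 4 pools, against -1.69, -1.41 and -1.36. CACFD1 and PTPRS, also named after their values were seen, were likewise lowest in that pool. CACFD1 was at -4.79 there, against -3.24, -3.01 and -2.99, and PTPRS at -4.23, against -3.27, -3.06 and -2.95. Among the lower genes outside the lists, BLOC1S6, a subunit of the complex that builds lysosome-related organelles, was at -1.46 (-1.70 and -1.22) and at -0.15 after normexp correction, where it did not pass. PHYHIPL was at -1.07 (-1.09 and -1.05) and at -1.02 with that correction, which ended its call, with levels of 1.72 uncovered and 0.65 covered. Among identifiers with no gene symbol here, 4293 had 2 or more usable probes, and 96 (2.24%) were higher and 8 (0.186%) lower by the same rule.

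Under the authors' table and its labels, 31 genes were higher and 0 lower in covered eyes, and 14 of the 31 were among the 45. The 14 include TNNC2 at 3.99, TNNT3 at 3.99, MYL10 at 3.50 and MSX1 at 1.97. The muscle genes were thus highest in the covered normal-light pool, whose label is the same in both sources. None of the 9 lower genes passed as lower with that control, and MGP passed as higher at 1.56.

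**Figure D5:**
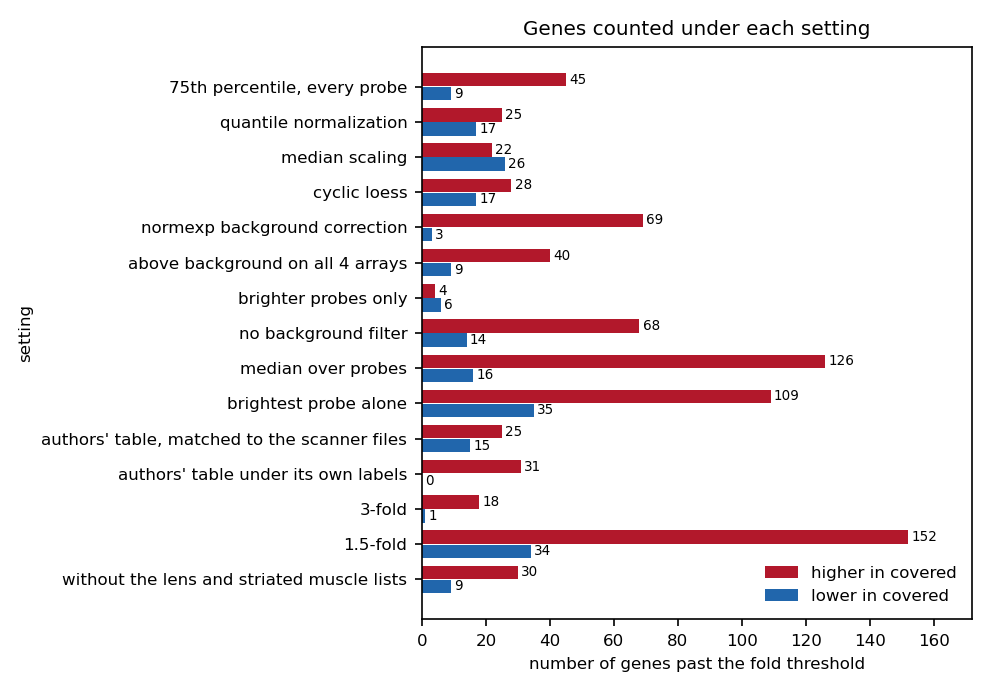
Number of genes past the fold threshold, higher (red) and lower (blue) in covered eyes under normal light, for the 75th percentile scaling with every probe at 2-fold and for each alternative. Higher genes range from 4 with the brighter probes to 152 at 1.5-fold, and lower genes from 0 under the table's labels to 35 for the brightest probe alone.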

How the data were processed

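Gene expression was read on 1-colour Cy3 arrays, 1 array for each of 4 pools of 4 eyes, with Agilent Feature Extraction 11.5.1.1, per the submitters' processing notes. Per the file headers, the deposited scanner files hold the processed intensity of each spot after background subtraction, with no scaling from array to array, beside other columns of 0 or 1 marks. The authors' deposited value table holds linear intensity values with column medians from 218.35 to 218.67, without centring by gene and with the scanner files' direction. The sources used here do not give their normalization.

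Repeated spots were averaged to 43603 probes, of which 17 had an outlier mark on either array. Names came from an unversioned match of RefSeq accessions to RefSeq genes of assembly GRCg7b. This named 11711 probes with 1 symbol and none with several, and left 31892 without a name here. The headers name the older build galGal3, so no coordinates are given. Gene values are medians over passing probes, of 2 to 11 a gene, with the range over probes as a technical spread. Levels are medians too, so their difference can depart from the median difference.

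Python 3.11.15, R 4.3.3 and limma 3.58.1 (quantile, cyclic loess and normexp with offset 50) were used. The files hold no mean spot signal, so normexp used the median signal, an alternative chosen after seeing the data, as was leaving out the lens and muscle lists. The depth of an array is limited by signal over background and by the number of arrays. Members and gene lists were chosen with earlier results of these data known. Named genes are EGR1 and the 12 genes highest and lowest by their weakest probe among those that passed (all 9 lower ones). The up to 3 largest differences a list were named too. Genes above background on 1 array only were named where their bound reached 2-fold, and the others were left out.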

Additional observations from a re-analysis of the deposited data

Results flagged for a closer look

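The crystallins CRYBA2, CRYBB1 and CRYBB3 passed the 2-fold rule in opposite directions under the 2 lights, each with 2 probes. CRYBA2 was at 3.65 under normal and -2.77 under violet light, which are 6.43 apart. CRYBB1 was at 1.41 and -2.63, 4.04 apart. CRYBB3 was at 1.19 and -2.30, 3.50 apart. The normal-light call of CRYBB1 was lost with quantile normalization (1.05) and cyclic loess (1.05), and that of CRYBB3 with those (0.92 and 1.00) and with median scaling (0.86). Each pair holds 1 of the 2 arrays whose labels are disputed. In the authors' table under its own labels, the normal-light differences of CRYBA2, CRYBB1 and CRYBB3 were 0.89, 0.52 and 0.38, and none passed. With 1 pool a group the difference between lights was not tested.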

How the results depend on the processing

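With 1 array a group, no alternative has an error between animals, and depth limits dim probes most. Against 45 higher and 9 lower genes, quantile normalization gave 25 and 17. Counts came to 22 and 26 with median scaling, 28 and 17 with cyclic loess, and 69 and 3 after normexp correction. They were 68 and 14 with no background filter, 4 and 6 in the brighter probes, 126 and 16 by the median over probes, 109 and 35 by the brightest probe alone, 18 and 1 at 3-fold, and 152 and 34 at 1.5-fold. The authors' table gave 25 and 15 when matched to the scanner files and 31 and 0 under its own labels. Counts were 40 and 9 with probes above background on all 4 arrays, and 30 and 9 without the lens and muscle lists. Some moves follow by construction. A stricter or looser fold counts fewer or more genes, the median over probes or the brightest probe alone cannot count fewer, and leaving out lists cannot count more. Median scaling moved all genes down alike, so it could not count more higher or fewer lower genes. Why the other counts moved was not tested. Under the table's own labels IFI6 was at 0.72, GRK7 at 0.0094, IRF1 at 0.60, ZC3HAV1 at 0.33, MGP at 1.56 and HK2 at -0.41, against the opposite sign in the scanner files. Among genes named by the rule that passed, no other sign turned under the alternatives run. No paired analysis was possible because each group is 1 pool. Names from a column of gene names could not be added, since the files used hold none.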
